A study of Mus musculus with 12 samples.

Results

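The 41 genes described here are transcripts that macrophages, monocytes and other antigen-presenting myeloid cells are known for, measured in libraries of NK and CD8 T cells that had been sorted from mouse tumours. They were taken by name from the count table, 41 of its 54232 gene identifiers. By role they comprised 3 lineage regulators, 5 genes of MHC class II, 5 genes for complement, lipid transport and lysozyme, 3 Fc receptors, 12 other surface markers and receptors, 7 genes of the phagosome and lysosome with related enzymes, and 6 cytokines and chemokines. The values show how much RNA of this kind each lymphocyte sort carried, in which genotypes, and which members made it up.

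Tumours were grown from MC38, a mouse colon adenocarcinoma line, injected under the skin of both flanks, and were taken 8 to 10 days later from sex- and age-matched mice. Each library was made from 300 sorted cells by Smart-seq2, a full-length cDNA method for very small inputs. NK cells were CD45 positive, CD3ε negative and NK1.1 positive, and CD8 T cells were positive for CD45, CD3ε and CD8a, so that neither gate as described names a myeloid marker. Mice were wild type (WT), lacked TYK2 (labelled TYK2KO, here KO) or had TYK2 inactivated as a kinase by a point mutation (labelled TYK2KE, here KE), giving 6 groups of 2 libraries. TYK2 is a Janus kinase of interferon and interleukin receptors, and neither mutation was restricted to a cell type, so the macrophages of a mutant mouse carried it as well as its lymphocytes. How many mice stood behind a library was not given in the sources used here, so the spread between the 2 libraries of a group may be technical in part, and p-values measure that spread only. Both mutant lines were on a C57BL/6N background.

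Total counts lay between 10378761 and 14732882 per library, so that 3 counts, the upper limit that a count of 0 allows and the floor used here, corresponded to 0.204 to 0.289 CPM (counts scaled to a library total of 1000000). These limits cover counting error only. The sort markers separated the cell types: Klrb1c, which encodes NK1.1, lay at 1028 to 2351 CPM in the 6 NK libraries and at 1.41 to 4.84 CPM in the 6 CD8 libraries, and Cd8a at 2.69 to 4.80 CPM against 2603 to 3981 CPM. Tyk2 itself did not separate the genotypes, at 44.2 to 83.7 CPM over WT libraries, 58.4 to 112 CPM over those labelled KO and 44.8 to 125 CPM over those labelled KE, so KO and KE below mean libraries with these labels.

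Macrophages arise from circulating monocytes or from precursors that settle in tissues early in life, and they depend on the growth factor receptor CSF1R and on the transcription factor PU.1. They take up dead cells and debris, degrade them in lysosomes, make complement C1q and apolipoprotein E, bind antibody through Fc receptors, and present peptides to helper T cells on MHC class II. In tumours they are commonly among the most frequent leukocytes. Mouse NK cells and CD8 T cells do not normally express MHC class II, C1q or CSF1R, whereas NK cells do carry the low-affinity Fc receptor encoded by Fcgr3 and, when mature or activated, the integrin CD11c encoded by Itgax.

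The 41 genes together made up 2.46% and 2.71% of all counts in the WT NK libraries, a summed level of 24599 and 27074 CPM. The NK KO libraries differed from each other, with 15630 CPM in KO 1 and 1207 CPM in KO 2, a 12.9-fold gap between replicates. The NK KE libraries held 1113 and 1730 CPM. Among CD8 libraries the sums were 1116 and 848 CPM in WT, 735 and 229 CPM in KO, and 1866 and 1006 CPM in KE. The 3 highest libraries were thus all NK libraries, and the lower of the WT NK libraries exceeded the highest CD8 library 13.2-fold. In bulk libraries, fewer myeloid cells in a sort and less of this RNA per cell cannot be told apart.

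**Figure D1:**
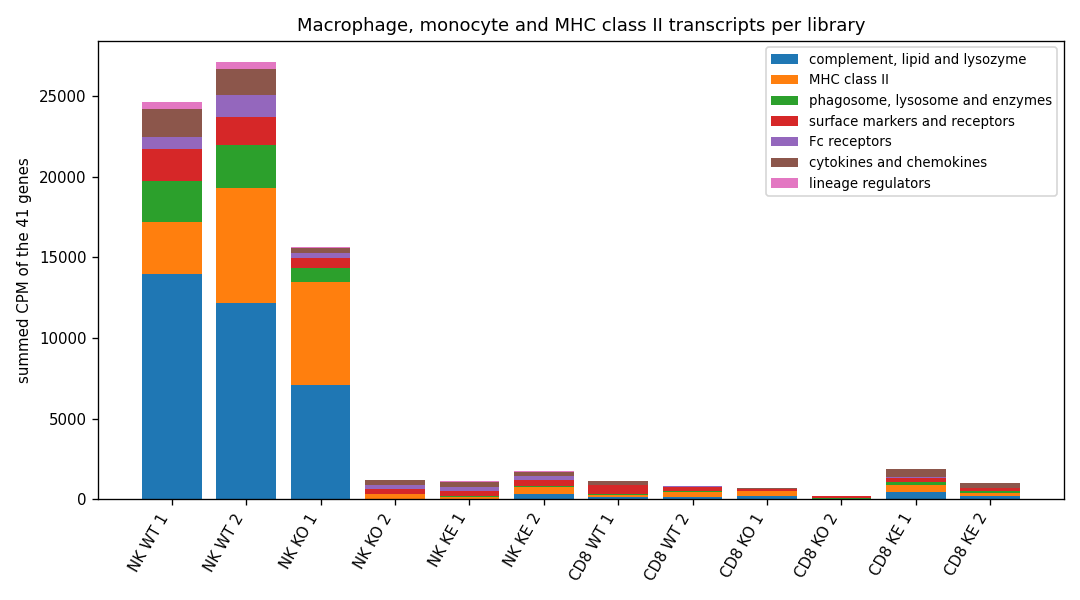
Summed CPM of the 41 genes (vertical axis) in each of the 12 libraries (horizontal axis), stacked by role in colour. NK WT 1, NK WT 2 and NK KO 1 stand at 24599, 27074 and 15630 CPM, and the other 9 libraries lie between 229 and 1866 CPM.

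All 41 genes were above the floor of 3 counts in NK WT 1 and 39 in NK WT 2, 35 in NK KO 1, 20 in NK KO 2, 20 in NK KE 1 and 32 in NK KE 2. In CD8 libraries it was between 22 and 32. In the WT NK libraries 40 and 39 genes reached 10 CPM. The highest library of the 12 was NK WT 1 for 18 genes, NK WT 2 for 16 and NK KO 1 for 4, namely Lyz2, H2-Aa, H2-Eb1 and Clec4n. For the remaining 3 it was CD8 WT 1 for Cd86, CD8 KE 2 for Ccl9 and NK KE 2 for Itgax.

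Part of what the low NK libraries held was RNA of 5 members that NK or T cells can make themselves, Fcgr3, Itgax, Spp1, Cebpb and Cd86. Without them the sum was 22588 and 25536 CPM in the WT NK libraries and 14888 CPM in KO 1. It was 346 CPM in KO 2, 211 CPM in KE 1 and 928 CPM in KE 2. In KO 2 and KE 1 the leading member was Itgax with 26.9% and Spp1 with 29.3% of the sum, while Apoe led in both WT libraries with 27.9% and 20.0%.

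**Figure D2:**
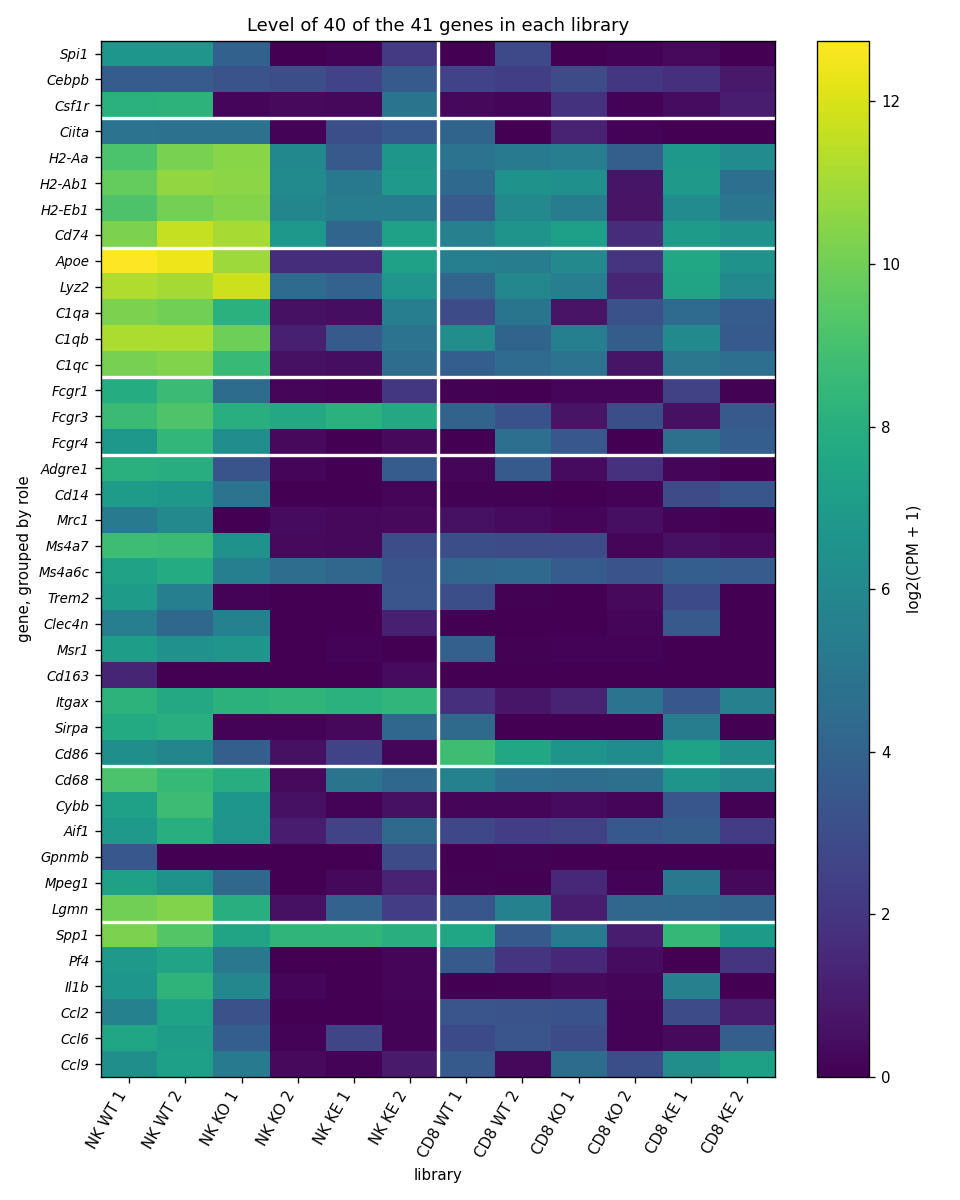
Level of 40 of the 41 genes (rows, grouped by role) in each library (columns) as log2(CPM + 1) in colour. The first 3 columns are bright over most rows, with Csf1r, Mrc1, Trem2 and Sirpa dark in NK KO 1, whereas Fcgr3 and Itgax are bright in all 6 NK libraries and Cd86 in all 6 CD8 libraries.

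Among the lineage regulators, Csf1r, the receptor for the macrophage growth factors CSF1 and IL-34, was highest in the WT NK libraries, followed by NK KE 2. It was at 282 CPM in WT 1 and 301 CPM in WT 2, 0.162 and 0.236 CPM in KO 1 and KO 2, and 0.193 and 28.9 CPM in KE 1 and KE 2. The CD8 libraries held it at 0.204 and 0.141 CPM in WT libraries, 2.64 and 0.0846 CPM in KO 1 and 2, and 0.332 and 0.982 CPM in KE 1 and 2. NK KO 1, with 15630 CPM of the 41 genes, had 2 counts of Csf1r, and NK KE 2, with 1730 CPM, had 368. Exons of Csf1r overlap the gene Hmgxb3, so some of its counts could belong to that gene if strand was not used. Spi1, which encodes PU.1, was at 104 and 99.1 CPM in WT, 14.4 CPM in KO 1, 0 CPM in KO 2, and 0.0964 and 3.45 CPM in KE libraries. Among CD8 libraries it lay at 0 CPM in WT 1 and 6.07 CPM in WT 2, 0 and 0.0846 CPM in KO 1 and KO 2, and 0.249 and 0 CPM in KE 1 and KE 2. Cebpb, a transcription factor that many cell types express, was at 4.82 to 12.2 CPM in all 6 NK libraries and at 0.842 to 6.41 CPM in CD8 libraries.

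PU.1 binds a purine-rich box, searched here as GAGGAAGT on both strands in the 250 bases before the RefSeq start of each gene. Promoters were found for 27 of the 41 genes, and 4 of them, C1qc, Fcgr4, Pf4 and Spp1, held the box, against 2.79% of the 27025 genes with a promoter in the table. Pf4, a platelet factor that macrophages also express, and Fcgr4, a macrophage Fc receptor, held it closest to the start. Their last bases before the start are shown in build GRCm38.p6, read 5′ to 3′ on the plus strand, which is the strand of both genes, with the box in capitals as its reverse complement.
Pf4, chr5:90772355-90772434: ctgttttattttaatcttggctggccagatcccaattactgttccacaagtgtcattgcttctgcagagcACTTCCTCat
Fcgr4, chr1:171018832-171018925: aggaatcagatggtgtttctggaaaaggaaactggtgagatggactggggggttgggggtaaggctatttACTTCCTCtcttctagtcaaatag
The letters are a match and not a measured site.

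The complement, lipid and lysozyme genes were the role with the highest share of this RNA in WT NK libraries, 56.7% and 44.9% of the summed level. Apoe, the lipid carrier of macrophages, had the highest level per exon length of the 41 genes there, a mean of 3343 CPM per kilobase of exon. It was at 6867 and 5423 CPM in WT libraries, 1895 and 2.13 CPM in KO 1 and 2, and 2.22 and 158 CPM in KE 1 and 2. CD8 libraries had it at 43.6 and 40.7 CPM in WT, 63.1 CPM in KO 1, 2.88 CPM in KO 2, and 192 and 89.5 CPM in KE libraries. The drop from NK WT or KO 1 to KO 2 and KE 1 was thus from at least 1895 CPM to at most 2.22 CPM, below every CD8 library.

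Lyz2, a lysozyme of macrophages, monocytes and neutrophils, was the member whose NK KO 1 value lay furthest above both WT libraries in CPM. It was at 2416 CPM in WT 1 and 2091 CPM in WT 2, 3503 and 20.6 CPM in KO 1 and KO 2, and 14.8 and 98.8 CPM in KE 1 and KE 2. In CD8 libraries it was at 16.7 and 59.5 CPM in WT libraries, 43.0 and 1.61 CPM in KO 1 and 2, and 172 and 63.7 CPM in KE 1 and 2. Lyz2 has a close copy, Lyz1, that was at or near 0 in all libraries, and reads that fit both were not counted.

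C1qa, C1qb and C1qc encode the 3 chains of C1q, the first component of the classical complement pathway, and lie next to each other at chr4:136895917-136898803, chr4:136880129-136886187 and chr4:136889804-136893065 on the minus strand. C1qa was at 1209 and 1064 CPM in WT, 283 CPM in KO 1, 0.472 CPM in KO 2, and 0.385 and 42.2 CPM in KE libraries. C1qb was at 2344 CPM in WT 1 and 2286 CPM in WT 2, 986 and 1.18 CPM in KO 1 and KO 2, and 11.1 and 28.4 CPM in KE 1 and KE 2. C1qc was at 1112 and 1290.3 CPM in WT libraries, 399 and 0.472 CPM in KO 1 and 2, and 0.385 and 22.7 CPM in KE 1 and 2. In WT NK libraries the order of the group means per kilobase of exon was C1qb, C1qa, C1qc, at 2127, 1093 and 999 CPM per kilobase.

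In the low libraries the 3 chains did not keep together. In CD8 libraries C1qa was at 6.58 and 30.3 CPM in WT, 0.603 CPM in KO 1, 7.95 CPM in KO 2, and 21.1 and 12.2 CPM in KE libraries. C1qb was at 77.4 CPM in WT 1 and 16.4 CPM in WT 2, 44.6 and 12.6 CPM in KO 1 and KO 2, and 64.2 and 11.4 CPM in KE 1 and KE 2. C1qc was at 12.9 and 20.7 CPM in WT libraries, 28.0 and 0.676 CPM in KO 1 and 2, and 31.9 and 23.9 CPM in KE 1 and 2. CD8 WT 1 and CD8 KO 1 held C1qb at 77.4 and 44.6 CPM beside C1qa at 6.58 and 0.603 CPM, whereas CD8 WT 2 held more C1qa than C1qb. Such splits also appeared between the 2 libraries of a group: of the 41 genes, 14 in the NK KO group, 6 in CD8 WT, 5 in CD8 KE, 3 in NK KE and 1 each in NK WT and CD8 KO were at or under 3 counts in one library and at 10 CPM or more in the other.

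The MHC class II genes encode the 2 chains of the peptide-presenting dimers (H2-Aa, H2-Ab1, H2-Eb1), their invariant chain (Cd74) and the coactivator that switches them on (Ciita). Promoters of the genes that Ciita switches on typically carry an inverted CCAAT motif, the Y box, searched here as CTGATTGG on both strands. Of the 27 genes with a promoter, H2-Aa, H2-Eb1 and Spp1 held it, against 4.43% of all genes with a promoter. It is shown for the first pair, because both genes were higher in NK KO 1 than in either WT library. Each runs 5′ to 3′ on its own strand in GRCm38.p6 with the box in capitals.
H2-Aa, chr17:34287824-34287944, minus strand: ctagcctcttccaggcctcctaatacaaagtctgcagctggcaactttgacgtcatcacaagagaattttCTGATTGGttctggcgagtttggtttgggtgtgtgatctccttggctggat
H2-Eb1, chr17:34305735-34305862, plus strand: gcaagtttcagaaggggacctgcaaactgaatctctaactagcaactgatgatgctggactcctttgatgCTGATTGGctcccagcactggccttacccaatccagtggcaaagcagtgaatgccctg
The boxes begin 51 and 62 bases before the RefSeq starts, and neither overlaps a PU.1 box.

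H2-Aa was at 570.1 and 1176 CPM in WT, 1442 CPM in KO 1, 61.4 CPM in KO 2, and 10.7 and 107 CPM in KE libraries. H2-Ab1 was at 849 CPM in WT 1 and 1646 CPM in WT 2, 1471 and 66.1 CPM in KO 1 and KO 2, and 34.0 and 113 CPM in KE 1 and KE 2. H2-Eb1 was at 585 and 1093 CPM in WT libraries, 1324 and 56.9 CPM in KO 1 and 2, and 39.3 and 41.2 CPM in KE 1 and 2. For each of these chains NK KO 1 lay within or above the range of the WT libraries, and KO 2 and both KE libraries lay at least 5-fold below the lower WT library. Cd74 was at 1185 and 3203 CPM in WT, 2135 CPM in KO 1, 109.9 CPM in KO 2, and 17.0 and 158 CPM in KE libraries. Ciita, at far lower levels, was at 27.9 CPM in WT 1 and 26.3 CPM in WT 2, 26.0 and 0.0787 CPM in KO 1 and KO 2, and 7.23 and 10.2 CPM in KE 1 and KE 2. NK KE 1 and KE 2 thus held Ciita at 7.23 and 10.2 CPM, while H2-Aa, H2-Ab1 and H2-Eb1 there did not exceed 113 CPM.

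In CD8 libraries H2-Aa was at 27.6 and 37.8 CPM in WT libraries, 42.1 and 13.4 CPM in KO 1 and 2, and 111 and 69.0 CPM in KE 1 and 2. H2-Ab1 was at 19.4 and 91.2 CPM in WT, 83.7 CPM in KO 1, 0.676 CPM in KO 2, and 114 and 23.8 CPM in KE libraries. H2-Eb1 was at 11.7 CPM in WT 1 and 62.3 CPM in WT 2, 41.5 and 0.592 CPM in KO 1 and KO 2, and 70.2 and 31.0 CPM in KE 1 and KE 2. CD8 KO 2 was the lowest of the CD8 libraries for each of these genes. Cd74 was at 46.2 and 95.2 CPM in WT libraries, 144 and 2.11 CPM in KO 1 and 2, and 127 and 92.3 CPM in KE 1 and 2. Ciita was at 16.4 and 0 CPM in WT, 1.36 CPM in KO 1, 0.0846 CPM in KO 2, and 0 and 0 CPM in KE libraries. With no Ciita count in either CD8 KE library, the group lay at least 73.4-fold below CD8 WT when 3 counts are allowed over the group, but the CD8 WT level itself came from WT 1 alone. Exons of Ciita overlap Dexi and those of Cd74 a microRNA gene, so counts there could be shared if strand was not used.

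Among the Fc receptors, Fcgr3, the low-affinity receptor that NK cells share with macrophages, was present in every NK library. It was at 417 CPM in WT 1 and 609.7 CPM in WT 2, 262 and 208 CPM in KO 1 and KO 2, and 284 and 207 CPM in KE 1 and KE 2. The CD8 libraries held it at 15.5 and 8.32 CPM in WT libraries, 0.603 and 7.44 CPM in KO 1 and 2, and 0.498 and 10.7 CPM in KE 1 and 2. Fcgr1, the high-affinity receptor of macrophages and monocytes, was at 239.9 and 413 CPM in WT, 21.9 CPM in KO 1, 0.157 CPM in KO 2, and 0.0964 and 3.22 CPM in KE libraries. Among CD8 libraries it lay at 0.0679 CPM in WT 1 and 0 CPM in WT 2, 0.151 and 0.169 CPM in KO 1 and KO 2, and 4.56 and 0.0702 CPM in KE 1 and KE 2. The Fc receptor genes are similar to each other in sequence, and reads shared between them were not counted. The WT NK libraries were the highest for both, and for Fcgr1 the other 10 libraries did not exceed 21.9 CPM. Fcgr4 ranged from 0 to 340.1 CPM over the NK libraries and from 0 to 24.8 CPM over the CD8 libraries.

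Of the surface markers, Adgre1, which encodes F4/80, was at 275 and 249 CPM in WT libraries, 8.93 and 0.157 CPM in KO 1 and 2, and 0 and 11.9 CPM in KE 1 and 2. CD8 libraries had it at 0.136 and 11.0 CPM in WT, 0.301 CPM in KO 1, 2.54 CPM in KO 2, and 0.166 and 0 CPM in KE libraries. Mrc1, the mannose receptor CD206, was at 37.1 CPM in WT 1 and 62.7 CPM in WT 2, 0 and 0.315 CPM in KO 1 and KO 2, and 0.193 and 0.235 CPM in KE 1 and KE 2. In CD8 libraries it was at 0.475 and 0.282 CPM in WT libraries, 0.151 and 0.423 CPM in KO 1 and 2, and 0.0829 and 0 CPM in KE 1 and 2. Trem2, a lipid-sensing receptor of tissue and tumour macrophages, was at 130.3 and 44.5 CPM in WT, 0.0811 CPM in KO 1, 0 CPM in KO 2, and 0 and 9.10 CPM in KE libraries. The CD8 libraries held it at 7.47 CPM in WT 1 and 0.0705 CPM in WT 2, 0 and 0.254 CPM in KO 1 and KO 2, and 6.22 and 0 CPM in KE 1 and KE 2. NK KO 1 held 3.41% of the WT mean of Adgre1, 0.0928% of that of Trem2 and no Mrc1 count.

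Itgax, which encodes CD11c, was the member most even over NK libraries. It was at 301 and 205 CPM in WT libraries, 287 and 324 CPM in KO 1 and 2, and 282 and 334 CPM in KE 1 and 2. Among CD8 libraries it lay at 2.38 and 0.705 CPM in WT, 1.36 CPM in KO 1, 28.4 CPM in KO 2, and 10.0 and 46.4 CPM in KE libraries. Over the other surface members, Ms4a7, Ms4a6c, the endotoxin co-receptor Cd14, the CD47 receptor Sirpa, the scavenger receptor Msr1 and the fungal lectin receptor Clec4n, the WT NK levels ran from 18.4 to 447 CPM. Cd163, a scavenger receptor of mature macrophages, had 18 counts in NK WT 1, 4 in NK KE 2 and none elsewhere, and was the only member too low for the test. Cd86, a costimulatory ligand, was at 80.4 CPM in WT 1 and 55.8 CPM in WT 2, 13.5 and 0.472 CPM in KO 1 and KO 2, and 5.20 and 0.157 CPM in KE 1 and KE 2. CD8 libraries had it at 446 and 201 CPM in WT libraries, 96.8 and 73.4 CPM in KO 1 and 2, and 169.8 and 83.3 CPM in KE 1 and 2. Every CD8 library except KO 2 held more Cd86 than any NK library.

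Of the phagosome and lysosome genes, Cd68, a glycoprotein of macrophage lysosomes, was at 556 and 377 CPM in WT, 243 CPM in KO 1, 0.236 CPM in KO 2, and 29.0 and 18.7 CPM in KE libraries. In CD8 libraries it was at 46.9 CPM in WT 1 and 23.8 CPM in WT 2, 22.9 and 24.9 CPM in KO 1 and KO 2, and 96.1 and 68.6 CPM in KE 1 and KE 2. Cybb, the catalytic subunit of the phagocyte NADPH oxidase, was at 157 and 431 CPM in WT libraries, 104 and 0.472 CPM in KO 1 and 2, and 0.0964 and 0.471 CPM in KE 1 and 2. The CD8 libraries held it at 0.136 and 0.141 CPM in WT, 0.301 CPM in KO 1, 0.169 CPM in KO 2, and 9.70 and 0.0702 CPM in KE libraries. Cd68 thus stayed detectable in all CD8 libraries, whereas Cybb exceeded 1 CPM in CD8 KE 1 only. Lgmn, a lysosomal protease, was the most abundant gene of this role in WT NK libraries at 1032 and 1279 CPM, and Gpnmb was detected at 10.2 CPM in NK WT 1 and 6.67 CPM in NK KE 2 but not in the other NK libraries. Aif1, a calcium-binding protein of macrophages, ranged from 1.02 to 266 CPM and Mpeg1, a pore-forming protein of phagosomes, from 0 to 156 CPM over the NK libraries, both highest in a WT library.

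Among cytokines and chemokines, Spp1, which encodes osteopontin and is made by macrophages and by activated lymphocytes, was at 1199 CPM in WT 1 and 656 CPM in WT 2, 171 and 321 CPM in KO 1 and KO 2, and 326 and 251 CPM in KE 1 and KE 2. CD8 libraries had it at 186 and 11.4 CPM in WT libraries, 36.4 and 1.01 CPM in KO 1 and 2, and 355 and 121 CPM in KE 1 and 2. NK KO 2 and NK KE 1, where Apoe lay near 2 CPM, held Spp1 at 321 and 326 CPM. Exons of Spp1 overlap the gene Gm42793, so counts there could be shared if strand was not used. Il1b, the inflammatory cytokine of activated monocytes, was at 104 and 314 CPM in WT, 58.8 CPM in KO 1, 0.157 CPM in KO 2, and 0 and 0.157 CPM in KE libraries. In CD8 libraries it was at 0 CPM in WT 1 and 0.0705 CPM in WT 2, 0.226 and 0.169 CPM in KO 1 and KO 2, and 46.2 and 0 CPM in KE 1 and KE 2. Ccl2, the main monocyte attractant, was at 47.3 and 169 CPM in WT libraries, 7.95 and 0 CPM in KO 1 and 2, and 0 and 0.0785 CPM in KE 1 and 2. The CD8 libraries held it at 9.37 and 8.61 CPM in WT, 8.37 CPM in KO 1, 0.0846 CPM in KO 2, and 6.80 and 1.05 CPM in KE libraries. Ccl9 was the only member highest in a CD8 library of a mutant, at 149 CPM in KE 2. Pf4 and Ccl6, both chemokines, ranged from 0 to 172 CPM and from 0.0785 to 186 CPM over the NK libraries, again highest in a WT library.

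The difference between the cell types was tested as the mean of the 3 NK groups against the mean of the 3 CD8 groups. Of the 40 members tested with edgeR, 5 passed an FDR of 0.05 with a log2 fold change of 1 or more in size, against 602 of 13129 genes or 4.59% of all genes tested. Higher in NK were 4 members (1.98% of all genes). Fcgr3 rose by a log2 fold change of 5.48 ± 0.75 (SE, edgeR FDR 0.00193). Itgax rose by 4.95 ± 0.71 (SE, edgeR FDR 0.00241). Fcgr1 followed with 6.06 ± 1.36 (SE, edgeR FDR 0.0268), and Ms4a6c, a member of the MS4A family of membrane proteins, with 1.64 ± 0.36 (SE, edgeR FDR 0.0249). In CD8 libraries Ms4a6c was at 17.3 CPM in WT 1 and 19.8 CPM in WT 2, 11.98 and 8.46 CPM in KO 1 and KO 2, and 13.02 and 11.8 CPM in KE 1 and KE 2, which overlapped the NK KE libraries at 17.3 and 9.03 CPM. Exons of Ms4a6c overlap the gene BE692007, so counts there could be shared if strand was not used. Cd86 was the 1 member lower in NK, with -3.90 ± 0.82 (SE, edgeR FDR 0.0202), where 2.6% of all genes were called lower.

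Fcgr3 and Itgax were also the members in which no NK library overlapped a CD8 library, as in 1.99% of all genes in that direction, and 0 members were without overlap in the other (2.97% of all genes). They passed with each of the 12 libraries left out in turn. The other 3 did not: the count of members called ranged from 2 to 16 over these fits. It was 2 without NK WT 1, without NK WT 2 or without CD8 WT 1, 3 without CD8 WT 2, without CD8 KO 2 or without CD8 KE 2, and 16 without NK KO 2. DESeq2 called 26 members against 12.1% of all genes. An unadjusted edgeR p under 0.05 was reached by 25 members with NK higher and 1 with NK lower, against 9.19% and 10.2% of all genes, and the log2 fold change was above 0 for 36 of 40 members, against 50.7% of all genes.

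**Figure D3:**
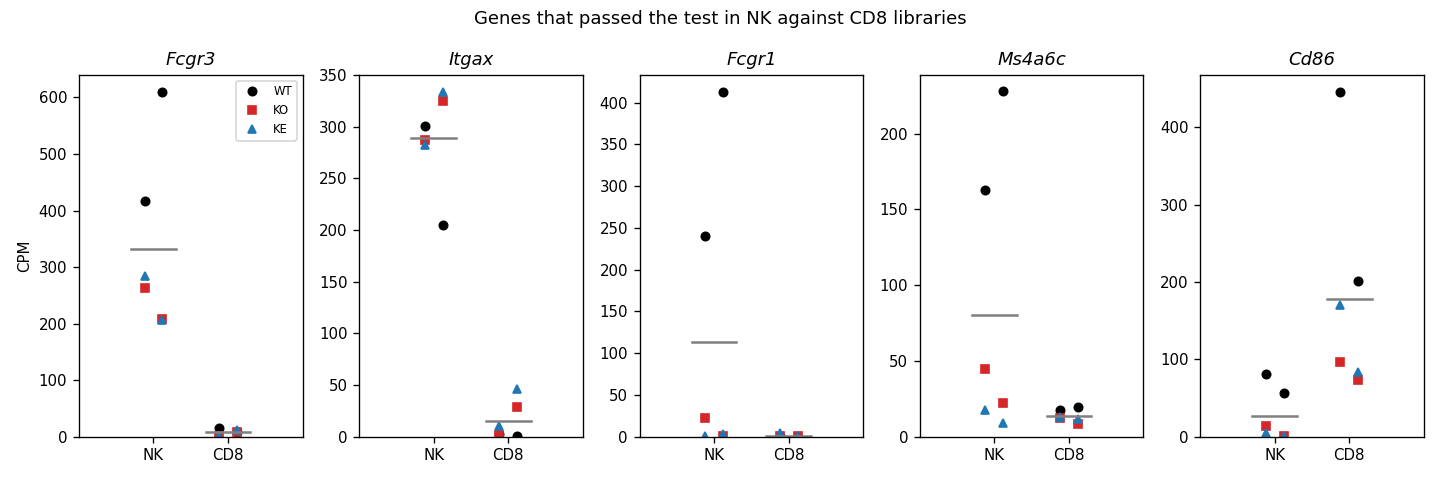
CPM (vertical axes, linear, each from 0) of the 5 genes that passed the test between NK and CD8 libraries, with 1 point per library, symbols for genotype and a grey line at the mean of the 6 libraries. For Fcgr3 and Itgax the 6 NK libraries lie above all 6 CD8 libraries, while Fcgr1 and Ms4a6c are set mainly by the WT NK libraries.

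The following 7 genes did not pass this test, and in NK KO 2 and KE 1 each of them lay among or below the CD8 libraries. The log2 fold change was 3.65 ± 1.41 (SE, edgeR FDR 0.195) for Apoe and 3.63 ± 1.18 (SE, edgeR FDR 0.131) for Lyz2. It was 3.72 ± 1.36 (SE, edgeR FDR 0.172) for C1qa, 4.01 ± 1.08 (SE, edgeR FDR 0.0604) for Csf1r and 5.26 ± 1.79 (SE, edgeR FDR 0.13) for Spi1. For Cd74 it was 2.76 ± 1.04 (SE, edgeR FDR 0.186) and for H2-Aa 2.87 ± 0.74 (SE, edgeR FDR 0.0509). The median over the 40 members was 2.93, beside 0.02 over all genes, and 3.74 from pooled counts with groups under 3 counts set to 3. It was 1.40 without NK KO 1.

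Within NK cells, the effect of losing TYK2 was read from KO vs WT and that of losing its kinase activity from KE vs WT, 2 comparisons that share the WT libraries. The NK KO libraries gave no common picture. Over the 39 members with a WT mean of at least 10 CPM, KO 1 held a median of 29.2% of the WT mean and KO 2 a median of 0.0754%. In KO 1, 13 members were at 50% or more, and 4 were under 1%. In KO 2, 2 members were at 50% or more and 30 under 1%.

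The members of NK KO 1 stood at different distances from WT. H2-Aa, H2-Eb1, Clec4n, Lyz2 and H2-Ab1 stood at 165%, 158%, 156%, 155% and 118% of the WT mean, and Cd74 and Ciita at 97.3% and 95.8%. Apoe, C1qa, C1qb and C1qc stood at 30.8%, 24.9%, 42.6% and 33.2%. Fcgr1, Adgre1, Csf1r, Trem2, Sirpa and Mrc1 stood at 6.71%, 3.41%, 0.0557%, 0.0928%, 0.0339% and 0%. MHC class II thus made up 40.9% of the sum in KO 1, against 13.1% and 26.4% in the WT libraries, and the lineage regulators 0.148% against 1.62% and 1.52%.

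In NK KE 2, Itgax, Cebpb, Fcgr3, Ciita and Spp1 stood at 132%, 93.1%, 40.3%, 37.6% and 27.0% of the WT mean. H2-Aa, Aif1, Trem2, Csf1r, H2-Ab1, Sirpa and Cd74 were between 7.19% and 12.3%, Apoe at 2.57%, Lyz2 at 4.39% and Cybb, Il1b and Ccl2 at 0.160%, 0.0751% and 0.0726%. In KE 1, 25 of the 39 members were under 1% of the WT mean. Each is a single library, so these makeups have no replicate.

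**Figure D4:**
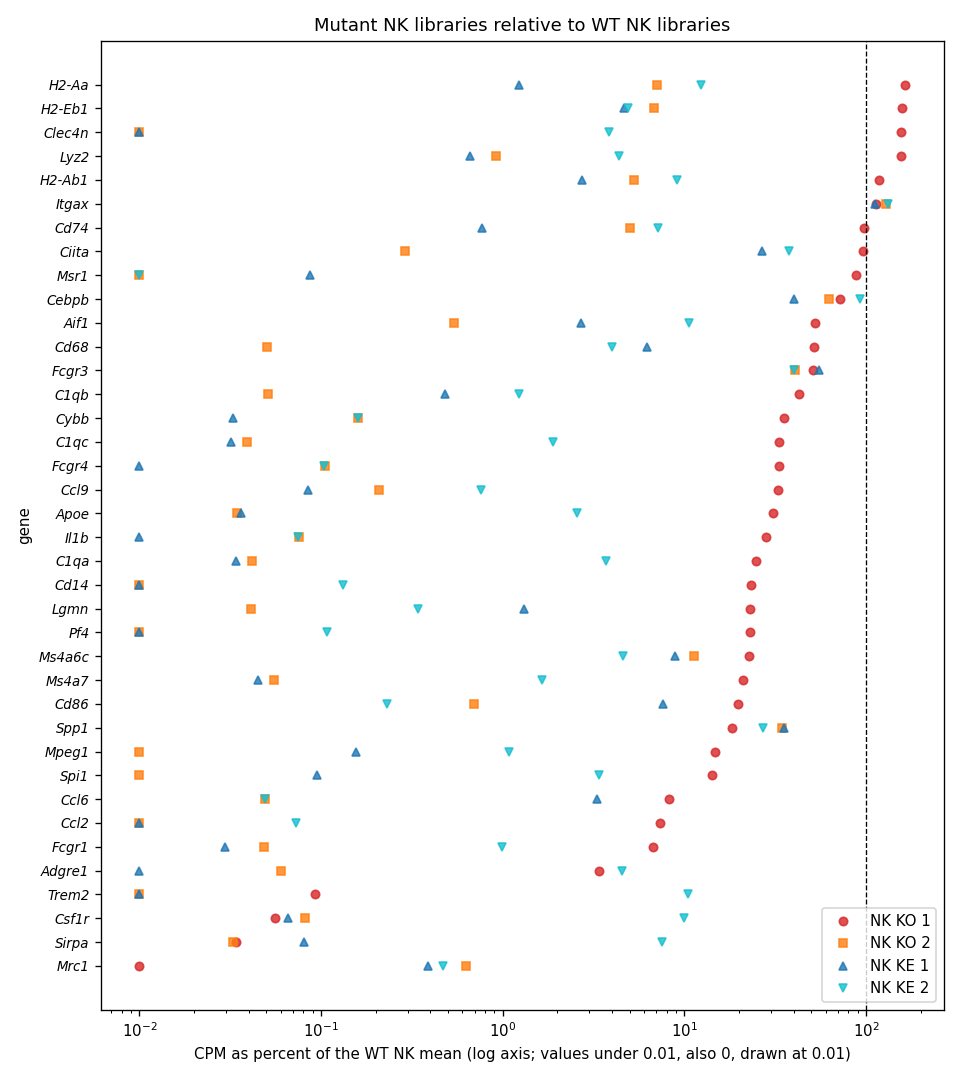
CPM of each gene in the 4 mutant NK libraries as percent of the mean of the 2 WT NK libraries (horizontal log axis, values under 0.01 and 0 drawn at 0.01; dashed line at 100%), for 38 of the 39 genes at 10 CPM or more in WT. NK KO 1 spreads from 0% to 165%, and most points of the other 3 libraries lie below 10%.

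By test, no member passed in either comparison, nor did any other gene (0% of all genes called in both). For KO vs WT, edgeR gave 8 members an unadjusted p under 0.05, all lower in KO, where 4.04% of all genes did so and 2.32% were higher. For KE vs WT it was 26 members, all lower in KE, where 3.99% of all genes did so and 2.07% were higher. DESeq2 called 5 members in KO and 18 in KE, all lower, beside 2.84% and 2.94% of all genes called in either direction. Without the filter on low counts edgeR called 15 and 31 of 41 members, beside 0.823% and 1.08% of the 23707 genes then tested. Both WT libraries lay above both mutant libraries for 31 members in KO and 38 in KE, which held for 18.9% and 19.1% of all genes. The opposite order was seen for 0 members in either comparison and for 16% and 16.3% of all genes.

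The smallest FDR in KO vs WT was that of Csf1r, with -10.54 ± 2.30 (SE, edgeR FDR 0.419) on 2 and 3 counts in the KO libraries, so its size depends on the prior count of the fit. In KE vs WT it was that of Ms4a6c, with -3.98 ± 0.68 (SE, edgeR FDR 0.16). Ms4a6c was at 163 and 228 CPM in WT, 44.6 and 22.1 CPM in KO, and 17.3 and 9.03 CPM in KE libraries, without overlap between WT and either mutant.

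For the complement and lipid genes the fitted log2 fold changes in KO and KE were, for Apoe, -2.79 ± 2.35 (SE, edgeR FDR 0.919) and -6.37 ± 2.78 (SE, edgeR FDR 0.816). For Lyz2 they were -0.45 ± 1.84 (SE, edgeR FDR 1) and -5.41 ± 2.23 (SE, edgeR FDR 0.791). For C1qa they were -3.09 ± 2.28 (SE, edgeR FDR 0.857) and -5.84 ± 2.59 (SE, edgeR FDR 0.823). The 2 KO libraries lay far apart for each of these genes, and no value passed. Lyz2 turned to 0.55 in KO without KO 2. Spi1 gave -3.91 ± 2.80 (SE, edgeR FDR 0.835) and -5.92 ± 3.09 (SE, edgeR FDR 0.823). Csf1r gave -4.42 ± 1.72 (SE, edgeR FDR 0.775) in KE.

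For MHC class II, Cd74 gave -1.04 ± 1.71 (SE, edgeR FDR 1) and -4.74 ± 1.98 (SE, edgeR FDR 0.799), and H2-Aa gave -0.30 ± 1.19 (SE, edgeR FDR 1) and -3.98 ± 1.34 (SE, edgeR FDR 0.669). H2-Aa turned to 0.28 in KO without NK WT 2 and to 0.64 without NK KO 2. Gpnmb, with 126 counts in WT, had none in KO, a level at least 41.4-fold lower when 3 counts are allowed over the group, but its WT counts came from WT 1 alone.

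The median log2 fold change of the 40 members was -2.74 in KO and -5.81 in KE, beside -0.01 and 0 over all genes, and -2.78 and -5.67 from pooled counts with the floor of 3. Single libraries set these sizes. Without NK KO 1 the KO median was -10.37, and without NK KE 2 the KE median was -9.67. Without NK KO 1, 1 member passed in KO vs WT and 1 in KE vs WT, and without NK KO 2, 1 passed in KE vs WT.

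Between the mutants, NK KO vs KE gave a median of 3.47, which turned to -3.17 without KO 1 and was 5.77 without KE 2. No member passed in edgeR, where 0% of all genes did, 11 had an unadjusted p under 0.05 with KO higher and 1 with KO lower (1.77% and 2.08% of all genes), and DESeq2 called 6 (1.56% of all genes). Csf1r, with the smallest p, gave -6.12 ± 1.97 (SE, edgeR FDR 1), and 0.033 without KE 2. Both KO libraries were above both KE libraries for H2-Eb1 and Ms4a6c (13.9% of all genes) and below them for Sirpa (14.5% of all genes).

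In CD8 T cells the sums of the 41 genes were at most 1866 CPM, and the genotype comparisons concerned low levels. For KO vs WT 0 of 40 members passed in edgeR, where 0.0533% of all genes did, 1 had an unadjusted p under 0.05 with KO higher and 2 with KO lower (2.27% and 2.57% of all genes), and DESeq2 called 3 (1.75% of all genes). Both KO libraries lay above both WT libraries for 4 members and below them for 8, as for 16.7% and 15.4% of all genes. Sirpa had no count in either KO library, at least 87.4-fold below WT, where its 302 counts came from WT 1 alone.

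For KE vs WT 0 of 40 members passed, where 0.0838% of all genes did, 4 had an unadjusted p under 0.05 with KE higher and 2 with KE lower (2.58% and 3.04% of all genes), and DESeq2 called 6 (2.5% of all genes). Itgax had the smallest FDR, with 4.13 ± 1.21 (SE, edgeR FDR 0.565), and was at 10.0 and 46.4 CPM in KE against 2.38 and 0.705 CPM in WT. Both KE libraries lay above both WT libraries for 10 members and below for 8, as for 16.4% and 16.3% of all genes. The 10 were Csf1r, H2-Aa, Apoe, Lyz2, C1qc, Cd14, Itgax, Cd68, Mpeg1 and Ccl9. The 8 were Cebpb, Mrc1, Ms4a7, Ms4a6c, Msr1, Cd86, Pf4 and Ccl2. Csf1r, Cd14 and Mpeg1 were at or under 3 counts in each WT library, and Mrc1 and Msr1 in each KE library.

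The fitted log2 fold changes in CD8 KO and KE were -0.42 ± 2.22 (SE, edgeR FDR 1) and 1.67 ± 2.26 (SE, edgeR FDR 1) for Apoe. Lyz2 gave -0.81 ± 1.87 (SE, edgeR FDR 1) and 1.59 ± 1.89 (SE, edgeR FDR 1). C1qa gave -2.19 ± 2.25 (SE, edgeR FDR 1) and -0.18 ± 2.13 (SE, edgeR FDR 1). All lay within 1 SE of 0. Csf1r gave 2.85 ± 1.81 (SE, edgeR FDR 0.893) and 1.84 ± 1.82 (SE, edgeR FDR 0.976) on at most 35 counts a library, and Spi1 -5.96 ± 3.29 (SE, edgeR FDR 0.888) and -4.57 ± 3.00 (SE, edgeR FDR 0.804). Cd74 gave -0.0011 ± 1.69 (SE, edgeR FDR 1) and 0.59 ± 1.70 (SE, edgeR FDR 1), and H2-Aa -0.30 ± 1.20 (SE, edgeR FDR 1) and 1.40 ± 1.22 (SE, edgeR FDR 0.937). Single libraries decided several of these directions. All CD8 WT counts of Spi1 came from WT 2, without which its values were 2.35 in KO and 3.75 in KE. Without CD8 WT 2 the KO values of Lyz2 and Cd74 also turned, to 0.30 and 0.55, and the KE value of C1qa to 1.24. Without CD8 KO 2 the KO values turned to 0.50 for Apoe, 0.11 for Lyz2, 0.96 for Cd74 and 0.29 for H2-Aa. Csf1r turned to -1.05 in KO without CD8 KO 1, and C1qa to 0.14 in KE without CD8 KE 2.

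The median over the members was -0.83 in CD8 KO and 0.50 in CD8 KE, beside 0 over all genes in both, and -0.77 and 0.46 with the floor of 3. The KE median was -0.53 without CD8 KE 1, and the KO median -2.13 without CD8 KO 1, -0.19 without CD8 WT 2, -0.29 without CD8 KO 2 and -0.46 without CD8 WT 1. CD8 KO vs KE had a median of -1.03, or -3.24 without CD8 KO 1 and -0.01 without CD8 KE 1. There 0 members passed in edgeR, as 0% of all genes did, 5 had an unadjusted p under 0.05, all with KO lower (1.71% of all genes, and 1.96% with KO higher), and DESeq2 called 3 (1.19% of all genes). Both KO libraries lay above both KE libraries for 5 members and below for 11, as for 15.2% and 14% of all genes.

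Whether a mutation moved the members differently in NK and CD8 T cells was tested as an interaction. With edgeR 0 members passed for KO, where 0.0152% of all genes did, and 0 for KE, where 0% did. An unadjusted p under 0.05 was reached by 2 members for KO and 20 for KE, all with the lower effect in NK (3.28% and 3.47% of all genes, with 2.04% and 2.79% in the other direction), and DESeq2 called 3 and 10 (1.49% and 2.11% of all genes). Csf1r had the smallest FDR for KO, -13.40 ± 2.85 (SE, edgeR FDR 0.51), and Cd14 for KE, -17.10 ± 3.75 (SE, edgeR FDR 0.425), both with groups at or under 3 counts a library. Without NK KO 1, 1 member passed for KO.

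Markers of other cell types were listed beside the members to show what kind of myeloid RNA the WT NK libraries held. Of 11 markers of resident macrophages, 7 were at 0 in both WT NK libraries, among them Timd4, Lyve1, Vsig4, Marco and Clec4f. Among the other 4, Folr2 was present in both WT NK libraries and at 0 in all mutant NK libraries. Mertk was at 42.1 and 35.0 CPM and Maf at 13.2 and 54.3 CPM in WT NK libraries. Maf overlapped the mutants, at 11.6 and 27.2 CPM in NK KO 1 and KO 2, and 5.40 and 9.97 CPM in NK KE 1 and KE 2. The sum of the list was 106 and 173 CPM in WT NK, 5.40 to 27.2 CPM in mutant NK and 0.151 to 17.6 CPM in CD8 libraries. Mertk, the receptor for uptake of apoptotic cells, was at 0 in NK KO 1 and at 4.24 CPM in NK KE 2.

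Of 10 monocyte markers, 3 were under 6 CPM in the WT NK libraries, where Vcan was at 0 and 0.0768 CPM, F13a1 at 0.969 and 1.15 CPM and Chil3 at 0 and 5.99 CPM. Fn1, at 59.1 and 74.0 CPM, and Thbs1, at 13.2 and 72.3 CPM, were present there and at or under 0.0964 CPM in the mutant NK libraries. The sum of the list, 2900 to 3547 CPM in NK and 1740.2 to 6332 CPM in CD8 libraries, was carried mainly by genes that NK or T cells also express, among them Ly6c2, Ccr2, Plac8 and S100a4. The 2 WT NK libraries, at 3015 and 3547 CPM, overlapped the mutant NK libraries, at 2900 to 3543 CPM.

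Of 12 neutrophil markers, S100a8, S100a9, Retnlg, Ngp, Camp and Elane had no count in any library. Csf3r, the receptor for the growth factor G-CSF, was at 6.06 and 6.68 CPM in the WT NK libraries and at 0 in the other 10 libraries, Mmp8 was at 20.4 CPM in NK WT 1 and at 0 in NK WT 2, and Ly6g was at or under 0.230 CPM in NK libraries and at 2.92 CPM in CD8 WT 1. The 12 markers summed to 6.91 and 26.6 CPM in WT NK and 0 to 0.243 CPM in mutant NK libraries. Some CD8 libraries held as much, with sums of 35.2 CPM in CD8 WT 1, 23.9 CPM in CD8 WT 2 and 16.98 CPM in CD8 KE 2. The remaining CD8 libraries lay between 0.0846 and 0.678 CPM. Mmp8 was at 19.3 CPM in CD8 WT 1, and Mmp9 at 12.96 and 11.7 CPM in CD8 WT 1 and WT 2. Ltf was at 10.4 CPM in CD8 WT 2 and 15.02 CPM in CD8 KE 2. Of 12 markers of conventional dendritic cells, Clec9a was at 0 in all libraries, and Flt3 and Cd209a were at 0 in all NK libraries. Batf3 was at 14.0 and 4.68 CPM in WT NK and at 0 in all mutant NK libraries, and Wdfy4 at 31.7 and 15.2 CPM in WT NK and 0 to 11.7 CPM in mutant NK libraries. Others were higher in mutants, with Itgae at 0 in both WT NK and 2.89 to 11.3 CPM in mutant NK libraries, and Zbtb46 at 2.50 and 0.0768 CPM in WT NK and 22.8 and 26.8 CPM in NK KE libraries. The sum of the list was 24.5 and 72.6 CPM in WT NK and 41.5 to 152 CPM in mutant NK libraries. The higher sums of CD8 libraries, 245 to 716 CPM, came mainly from Ccr7, which T cells express. Siglech, which defines plasmacytoid dendritic cells, had no count in any NK library. The 8 genes of that list summed to 1595 and 1983 CPM in WT NK and 747 to 1144 CPM in mutant NK libraries, mostly from Irf8 and Bst2, which are not limited to these cells.

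Of 12 B cell markers, 9 were at 0 in NK WT 1 and 7 in NK WT 2, and Cd79a, Pax5, Blk and Fcmr had no count in any library. Cd79b, a chain of the B cell receptor complex, was at 0.0808 and 32.4 CPM in NK WT 1 and NK WT 2, at 9.42 CPM in NK KE 2 and at 0 in the other mutant NK libraries. Bank1, a B cell scaffold protein, was at 13.1 CPM in NK WT 2 and at 0 in the other NK libraries. NK WT 2 was thus the WT library with more of both Cd79b and the MHC class II RNA. The 12 markers summed to 464 and 615 CPM in WT NK and 309 to 856 CPM in mutant NK libraries, mostly from Ighm. The 8 tumour epithelium markers summed to 9.29 and 10.2 CPM in WT NK and 0 to 53.1 CPM in mutant NK libraries, the 10 stroma markers to 149 and 286 CPM and to 106 to 235 CPM, and the 8 mast cell and basophil markers to 66.0 and 102 CPM and to 50.9 to 237 CPM. These 4 lists overlapped between WT and mutant NK libraries. The stroma sums of NK libraries came mainly from Pecam1, at 254 CPM in NK WT 1 and 144 CPM in NK WT 2. Col1a2, Cdh5, Kdr and Pdgfrb had no count in any NK library. The mast cell and basophil sums of NK libraries came mainly from Kit and Cma1. The 8 NK cell markers summed to 15149 and 15884 CPM in WT NK and 14249 to 15606 CPM in mutant NK libraries, and the 8 T cell markers to 87.8 and 206 CPM and to 213 to 460 CPM, and of these 2 lists the T cell sums did not overlap between WT and mutant NK libraries. The part of each of these cell types in the results was not tested.

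**Figure D5:**
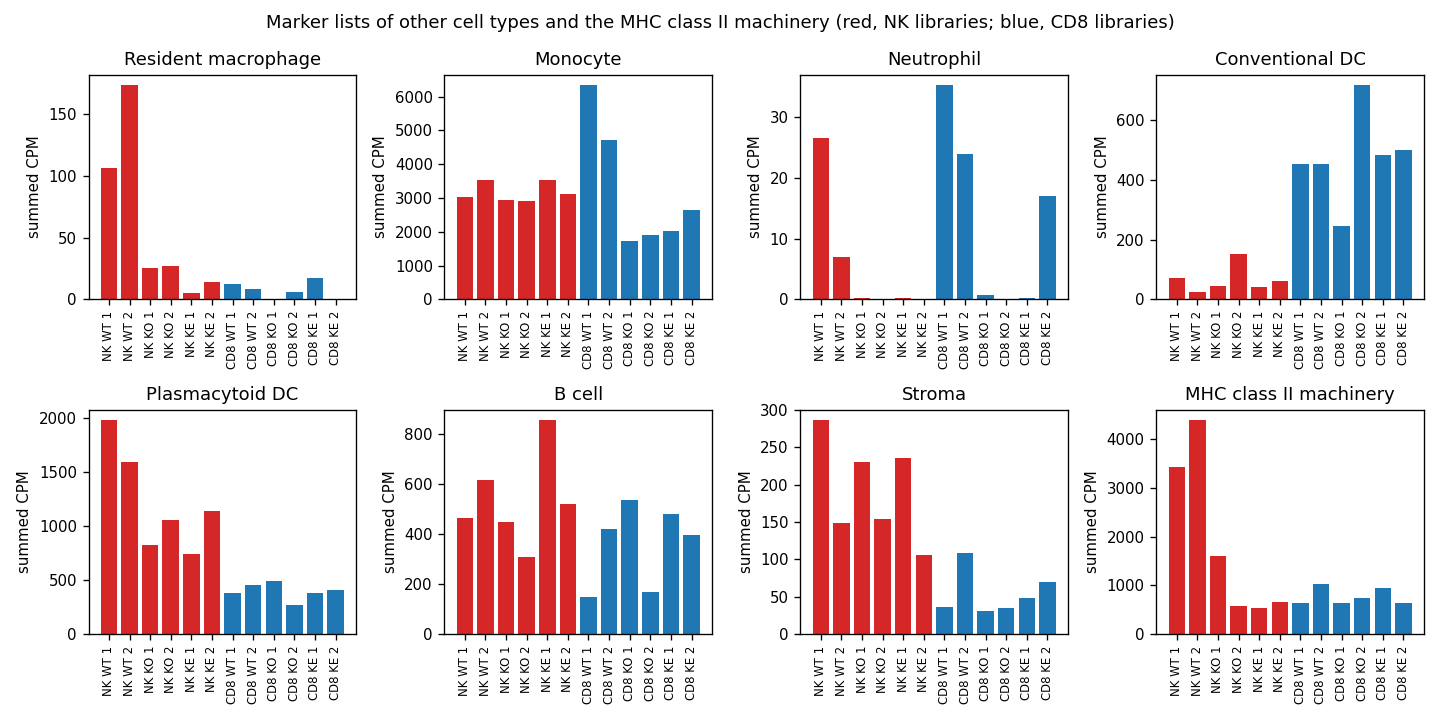
Summed CPM (vertical axes, linear, each from 0 and on its own scale) of 8 marker lists in each library, NK in red and CD8 in blue. Resident macrophage genes and the MHC class II machinery are highest in the WT NK libraries (106 and 173 CPM, and 3438 and 4389 CPM), whereas conventional DC genes are highest in CD8 libraries (245 to 716 CPM).

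The machinery around MHC class II was listed with 14 genes, of which 0 passed in any of the 7 comparisons between groups. In KO vs WT NK cells 2 of the 14 had an unadjusted p under 0.05 and in KE vs WT 3, all lower in the mutant, as were 4.04% and 3.99% of all genes. Ctss, a protease that trims the invariant chain and is made by macrophages and lymphocytes, was at 2739.8 CPM in WT 1 and 3414 CPM in WT 2, 921 and 259 CPM in KO 1 and KO 2, and 176 and 263 CPM in KE 1 and KE 2. Its log2 fold change was -2.47 ± 0.56 (SE, edgeR FDR 0.429) in KO and -3.90 ± 0.60 (SE, edgeR FDR 0.141) in KE. H2-DMa, a peptide-loading chain, was at 118 and 262 CPM in WT libraries, 193 and 125 CPM in KO 1 and 2, and 36.1 and 80.1 CPM in KE 1 and 2. Its partner H2-DMb1 was at 38.4 and 151 CPM in WT, 72.8 CPM in KO 1, 0.0787 CPM in KO 2, and 4.43 and 13.8 CPM in KE libraries. The factors that bind the Y box and its neighbours, Nfya, Nfyb, Nfyc, Rfx5, Rfxap, Rfxank and Creb1, are expressed widely. Nfyb was at 55.1 to 104 CPM in NK and 81.8 to 127 CPM in CD8 libraries. Over the NK libraries Rfx5 ranged from 0 to 22.6 CPM, Rfxap from 0 to 24.1 CPM and Nfya from 0.845 to 12.8 CPM.

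A further 39 macrophage-associated genes were followed, of which 36 were tested. In NK against CD8, 3 passed, all higher in NK (1.98% of all genes), namely Pld4, Tyrobp and Fcer1g. Pld4, a nuclease of the endolysosome, was at 158 CPM in WT 1 and 345 CPM in WT 2, 68.7 and 5.35 CPM in KO 1 and KO 2, and 0.0964 and 7.93 CPM in KE 1 and KE 2, and between 0.0702 and 7.20 CPM in CD8 libraries. The other two encode adaptors of activating receptors that NK cells use themselves. Tyrobp was at 1678 to 2555 CPM and Fcer1g at 2390.0 to 3047 CPM over all 6 NK libraries. In the genotype comparisons 0 passed, with an unadjusted p under 0.05 for 4 of 36 in NK KO and 14 of 36 in NK KE, all lower, beside 4.04% and 3.99% of all genes. Tgfbi, a matrix protein induced by TGF-β, was at 1021 and 687 CPM in WT libraries, 293 and 0.236 CPM in KO 1 and 2, and 0.289 and 10.2 CPM in KE 1 and 2. Fcgr2b, the inhibitory Fc receptor, was at 337 and 658 CPM in WT, 214 CPM in KO 1, 0.394 CPM in KO 2, and 23.9 and 29.9 CPM in KE libraries. The order NK WT, KO 1, then the other 3 mutant libraries was seen for both, as for Apoe and C1q. Ncf4 and Cyba, oxidase subunits that lymphocytes also express, were at 228 to 388 CPM and 458 to 699 CPM over the NK libraries.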

How the data were processed

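RNA of 12 libraries of 300 sorted cells was sequenced by the authors after Smart-seq2. The deposited table holds raw read counts per gene, which the authors made with Trimmomatic 0.32, STAR 2.7.1 on GRCm38 and GenomicAlignments with Ensembl release 93, keeping uniquely aligned reads. Reads shared between near-identical genes are therefore missing, and whether strand was used was not given in the sources used here.

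The tests used edgeR 4.0.16 with R 4.3.3 on the counts (robust quasi-likelihood test, TMM factors, 1 mean per group, all 12 libraries). The fit used the edgeR default prior count, and a prior count of 2 served only for log2 CPM in the check of same-numbered libraries. Tested were the 13129 genes with a mean DESeq2-normalized count of at least 10. Tests were two-sided, FDR is the Benjamini-Hochberg value over all of these genes, and a gene was called at an FDR under 0.05 with a log2 fold change of 1 or more in size. SE was the size of the log2 fold change over the root of its F statistic. CPM are counts scaled to a library total of 1000000. Other settings were DESeq2 1.42.0, RLE factors, no filter on low counts, each cell type alone, the replicate number as a block, and each library left out in turn. The script was tested on simulated counts. Promoters came from RefSeq for GRCm38.p6, gene positions and exon lengths from GENCODE M21.

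Values in every library were printed for fixed representatives of each role and for called members, and fold changes for 7 of them, for called members and for the member with the smallest FDR. Some members and markers are counted in sums and counts but their own values are not reported here. Further genes named beside these, from the marker lists too, were picked after their values were seen. The members and lists were chosen with earlier results of these data known.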

Additional observations from a re-analysis of the deposited data

How the results depend on the processing

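With DESeq2 the members called were 26 in NK against CD8, 5 in NK KO vs WT, 18 in NK KE vs WT, 6 in NK KO vs KE, 3 in CD8 KO vs WT, 6 in CD8 KE vs WT, 3 in CD8 KO vs KE, and 3 and 10 for the KO and KE interactions. With edgeR and no filter on low counts they were, in the same order, 30, 15, 31, 22, 7, 13, 12, 6 and 27 of 41, beside 5.19%, 0.823%, 1.08%, 0.405%, 0.523%, 0.78%, 0.346%, 0.553% and 0.818% of all genes. The main counts were 5 in NK against CD8 and 0 elsewhere, and the cause of these differences was not tested. RLE factors left every count and median of members within the limits set, and so did each cell type alone for the 6 comparisons within a cell type, the others not being possible there, and TMM library sizes for the sums.

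Same-numbered libraries did not deviate together (r from -0.0264 to 0.0372 over 15 pairs of groups). Whether the numbers mark shared mice or days was not given in the sources used here. A correlation over all genes cannot exclude it, and the main fits took the libraries as unpaired. With the replicate block the counts of members were 5 in NK against CD8 and 0 elsewhere, the CD8 KO median was -1.48, and C1qa in CD8 KE vs WT turned to 0.23.

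Leaving out 1 library at a time gave 2 to 16 members in NK against CD8 and 0 to 1 in NK KO vs WT, NK KE vs WT and the KO interaction. The median log2 fold change ranged from 1.40 to 3.78 in NK against CD8, -10.37 to -1.89 in NK KO vs WT, -9.67 to -4.91 in NK KE vs WT, -3.17 to 5.77 in NK KO vs KE, -2.13 to -0.19 in CD8 KO vs WT, -0.53 to 0.81 in CD8 KE vs WT and -3.24 to -0.014 in CD8 KO vs KE. Directions turned for Lyz2 (-6.89 to 0.55) and H2-Aa (-3.94 to 0.64) in NK KO vs WT and for Csf1r in NK KO vs KE (-7.11 to 0.033). In CD8 KO vs WT they turned for Apoe (-3.97 to 0.50), Lyz2 (-4.64 to 0.30), Csf1r (-1.05 to 3.78), Spi1 (-8.34 to 2.35), Cd74 (-5.15 to 0.96) and H2-Aa (-1.38 to 0.29), and in CD8 KE vs WT for C1qa (-0.88 to 1.24) and Spi1 (-8.34 to 3.75).

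The mean sum of NK WT was 19691 CPM without the most abundant member. Without the 5 genes that lymphocytes can express it was 24062 CPM in NK WT, 569 CPM in NK KE and 542 CPM in CD8 WT. Levels under 3 counts, 0.204 to 0.289 CPM, were not distinguishable from 0 at this depth, and with 2 libraries a group the spread rests on few values.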
